A study of Homo sapiens with 5 samples.

Results

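The signal recognition particle genes described here are 9 genes found by symbol in each of the 3 deposited tables, of 11102 genes in the USP28-KO table and 12342 in each of the reconstitution tables. They comprise the RNA genes RN7SL1 and RN7SL2, the 6 protein subunits SRP9, SRP14, SRP19, SRP54, SRP68 and SRP72, and SRPRB, the beta subunit of the receptor. SRPRA, the alpha subunit, was listed in every table as well and so meets the same rule. It is given beside SRPRB, outside the counts of members. The group was chosen by the authors' deposited fold changes of the RNA genes with monomeric and with wild-type USP28. By the names of the deposited comparisons, each form was set against a control, and neither against the other form. The question was whether the proteins follow the RNA genes. The fold changes and their p-values are the study's own results and were not used here, so that question was not tested. What remained in the files was 1 average level per gene and experiment.

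HLF is an established human hepatocellular carcinoma line. The first experiment compared HLF cells with a control guide (sgCtrl, USP28-Ctrl) and with a guide against USP28 (sgUsp28, USP28-KO). The second started from the USP28-KO cells and gave all of them a lentiviral pRRL vector, either empty (pRRL-Ctrl), with HA-tagged wild-type USP28 (USP28-WT) or with a monomeric form (USP28-M) in which a leucine of the dimer interface is mutated. The labels give no drug treatment in any of the 5 conditions, and each has 1 listed sample. The knockout came from picked single clones, and both transgenes were driven from a vector rather than from the gene's own promoter. Of 10 hepatocyte markers, 1 was listed in the first experiment and 3 in the second, and the defining ALB, APOA1, APOB, AFP, TTR and HNF4A were listed in no table. FGB, a fibrinogen chain, was listed in both experiments, with an average of 6.0 log2 CPM in the first and 3.20 in the second. Of 4 epithelial markers, KRT8 (11.2 and 12.0 log2 CPM) and KRT18 (10.7 and 11.2) were listed, and EPCAM and CDH1 were in no table. All 4 mesenchymal markers were listed, with VIM at 11.7 log2 CPM in both experiments, SPARC at 8.11 and 8.60, CDH2 at 7.72 and 8.06, and FN1 at 6.32 and 5.20. Leukocyte and endothelial markers were listed in no table except CD14, at 0.93 log2 CPM in the second experiment. In such bulk samples of 1 cell line, fewer cells that express a gene and less of its RNA per cell cannot be told apart.

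Each deposited average is a log2 CPM, the log2 of the reads of a gene after scaling to library size, taken over all libraries of an experiment. USP28-Ctrl and USP28-KO therefore share 1 value, and so do vector, USP28-WT and USP28-M. The 2 reconstitution tables held the same average for all 12342 genes. From the spacing of the lowest averages, the first experiment held about 7.69e+06 reads in all and the second about 3.05e+07. The files used hold no value of a single library. The spread among replicates is therefore unknown, and nothing below is tested. Intervals beside read numbers are 95% Poisson intervals and cover counting error only.

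The signal recognition particle (SRP) is a ribonucleoprotein that recognises the signal sequence of a nascent secretory or membrane protein as it leaves the ribosome. It slows elongation and brings the ribosome to its receptor on the endoplasmic reticulum, where the chain enters the Sec61 channel. The RNA, known as 7SL, is made by RNA polymerase III and forms the scaffold. SRP9 and SRP14 bind its Alu domain, and the other subunits bind its S domain. Hepatocytes, which secrete most plasma proteins, use this route heavily.

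The RNA genes were compared in sequence because their likeness determines how far their reads can be told apart. Their transcripts were taken from GENCODE release 29 on GRCh38, while the reads had been aligned to hg19. In that release RN7SL1 (NCBI gene 6029) is a single exon on the plus strand at chr14:49586580-49586878. RN7SL2 (NCBI gene 378706) is a single exon on the minus strand at chr14:49862550-49862849.

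Compared position by position from the 5′ end without gaps, RN7SL1 and RN7SL2 were identical at 295 of 299 bases (98.7%). The longest stretch without a difference spanned 205 bases. Of the 250 windows of 50 bases in RN7SL1, 158 occurred unchanged in RN7SL2, and of the 200 windows of 100 bases 106 did. A read that falls in such a window cannot be assigned to either gene by its sequence. A further copy, RN7SL3, is listed in no table here, and 86 of the 50-base windows of RN7SL1 occurred in it. All 299 bases of RN7SL1 also lie in exons annotated under 1 other gene name, whose strand and ends were not compared. GENCODE release 29 holds 680 transcripts with an RN7SL name. Over all its transcripts, each of the 250 windows of 50 bases in RN7SL1 also occurred under another gene name. In RN7SL2, 34 of the 251 such windows occurred under no other name. The other name annotated over RN7SL1 was not left out of the RN7SL1 count, so that count alone does not show copies elsewhere. How the authors' counting treated reads with several matches is not given in the sources used here. The levels of both RNA genes are therefore uncertain as separate values.

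In the first experiment RN7SL1 had an average of 5.94 log2 CPM and RN7SL2 of 5.98 log2 CPM. These levels correspond to about 473 reads (95% Poisson interval 431 to 518) for RN7SL1 and 484 reads (442 to 529) for RN7SL2. The near-identical copies thus stood at nearly the same level, and their intervals overlapped. In the second experiment RN7SL1 was at 5.81 log2 CPM, from about 1713 reads (1633 to 1796). RN7SL2 was at 6.14 log2 CPM, from about 2141 reads (2051 to 2234). Here RN7SL2 stood above RN7SL1 and the counting intervals did not overlap. The ratio of RN7SL2 to RN7SL1 was 1.02 in the first experiment and 1.25 in the second. As a share of the reads of both genes, RN7SL2 held 50.6% in the first (95% Wilson interval 47.4% to 53.7%, 957 reads) and 55.6% in the second (54.0% to 57.1%, 3854 reads). Both intervals cover counting error only, and whether the shift exceeds the spread between libraries was not tested. They assume that each read was counted once, for 1 gene, as do the comparison of Poisson intervals and the sum of the pair. Whether the counting did so is not given in the sources used here. The sum of the pair hardly differed between the experiments, at 124 CPM and 127 CPM. Other small RNAs were less alike, with BCYRN1 at 7.08 log2 CPM in the first experiment and 6.52 in the second. RN7SK and RMRP were listed in the first alone, and SNORD3A and RPPH1 in the second alone. Whether the libraries of both experiments captured such RNAs alike was not tested.

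SRP9 and SRP14 form the heterodimer that sits on the Alu domain and slows elongation. SRP9 (NCBI gene 6726, chr1:225777813-225790466, GRCh38) had an average of 7.42 log2 CPM in the first experiment and 7.27 log2 CPM in the second. SRP14 (NCBI gene 6727, chr15:40035739-40039188) had 7.45 log2 CPM and 7.30 log2 CPM. The partners lay close together in read level and shifted by nearly the same amount between the experiments, by -0.15 for SRP9 and -0.14 for SRP14 on the log2 scale. Of the 1547 windows of 50 bases in the longest SRP9 transcript, 163 also occurred in a transcript of another gene, so a part of its reads may be shared. An antisense gene, SRP14-AS1, was listed in the second experiment alone, at 1.70 log2 CPM or about 99.1 reads. The library kit named in the labels does not mark strand, and the strand setting of the counting is not given in the sources used here.

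SRP68 and SRP72 form the other heterodimer of the particle, on the S domain. SRP72 (NCBI gene 6731, chr4:56467336-56503681) had the highest read level of the 9 members, 8.01 log2 CPM in the first experiment and 7.81 log2 CPM in the second, or about 1978 and 6816 reads. SRP68 (NCBI gene 6730, chr17:76038775-76072653) had 7.40 log2 CPM and 7.26 log2 CPM. With SRP9 and SRP14, these genes made up a set of 4 subunits whose averages all were lower in the second experiment, with differences from -0.14 (SRP68) to -0.20 (SRP72) on the log2 scale, next to a median of -0.12 over all 10976 genes that both experiments list.

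SRP54 is the GTPase subunit that binds the signal sequence and docks on the receptor, and SRP19 is the subunit that lets SRP54 join the RNA. SRP54 (NCBI gene 6729, chr14:34981957-35029567) had an average of 6.31 log2 CPM in the first experiment and 5.65 log2 CPM in the second, a difference of -0.67. SRP19 (NCBI gene 6728, chr5:112861188-112898371) had 5.82 log2 CPM and 4.90 log2 CPM, a difference of -0.92, which is 1.89-fold. These were the largest differences among the 9 members. The SRP19 difference lay at percentile 11.0 of all shared genes and that of SRP54 at percentile 18.1. SRP19 rested on about 434 reads (394 to 477) and 912 reads (854 to 973). SRP54 rested on about 612 reads (565 to 663) and 1529 reads (1453 to 1607), so counting error was smaller than either difference. Of the 7014 windows of 50 bases in the longest SRP19 transcript, 1636 also occurred in transcripts of other genes. Of the exonic bases annotated for SRP19, 18.2% also belong to exons of 3 other genes, and for SRP54 none do. The part of shared sequence in the SRP19 level was not tested.

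The receptor consists of SRPRA, a GTPase that pairs with SRP54, and SRPRB, which anchors it in the membrane of the endoplasmic reticulum. SRPRB (NCBI gene 58477, chr3:133784033-133825772) had an average of 5.67 log2 CPM in the first experiment and 5.47 log2 CPM in the second. SRPRA (NCBI gene 6734, chr11:126262919-126269144) had 7.83 log2 CPM and 7.67 log2 CPM. Per kilobase of the longest transcript SRPRA was 4.12-fold above SRPRB in the first experiment and 4.25-fold above it in the second. The median transcript length widened this gap, to 2.31 and 2.35 on the log2 scale from 2.04 and 2.09. Of the exonic bases of SRPRB, 21.1% are shared with 3 other annotated genes.

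Genes of different length can be compared only per length, for which each CPM was divided by the length in kilobases of the longest GENCODE transcript. On this scale the order of the 9 members and SRPRA was the same in both experiments. RN7SL2 (7.71 and 7.87 log2 CPM per kilobase) and RN7SL1 (7.68 and 7.56) came first. SRP14 (7.34 and 7.20), SRP9 (6.75 and 6.59), SRPRA (6.21 and 6.05), SRP68 (5.99 and 5.85) and SRP72 (5.96 and 5.76) followed. SRP54 (5.10 and 4.43), SRPRB (4.17 and 3.97) and SRP19 (3.0 and 2.08) came last. The partners SRP68 and SRP72 were adjacent here, but with median lengths stood at 6.62 (SRP68) and 7.68 (SRP72) in the first experiment and at 6.48 and 7.48 in the second. Which neighbours in this order differ beyond the spread of libraries cannot be said from averages. The protein members spanned 20.3-fold in the first experiment and 34.6-fold in the second, and 5.72-fold and 7.43-fold with median transcript lengths.

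**Figure D1:**
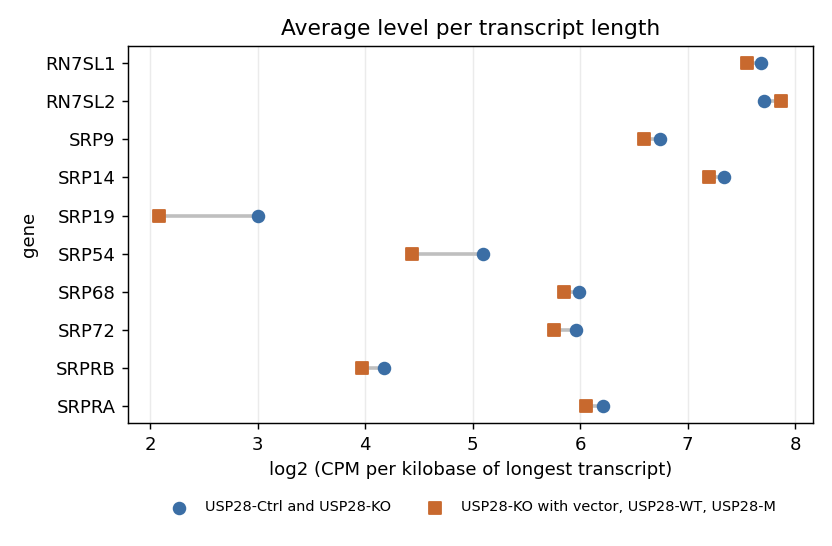
Average level of the 9 members and SRPRA per kilobase of the longest transcript (horizontal axis, log2 CPM per kilobase), with circles for the average over USP28-Ctrl and USP28-KO and squares for the average over USP28-KO with vector, USP28-WT or USP28-M. The RNA genes lie furthest to the right, and SRP19 and SRP54 have the widest gaps between circle and square (differences of -0.92 and -0.67).

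For each of the 7 protein members, replacing the longest transcript by the median one moved this level more than the experiments did. SRP19 has a longest transcript of 7063 bases and a median transcript of 780, and its level in the second experiment was 2.08 with the former and 5.26 log2 CPM per kilobase with the latter. With median lengths the RNA genes no longer came first. In the first experiment SRP9 (8.31), SRPRA (8.10) and SRP14 (7.85) stood above both of them (7.68 and 7.71). In the second SRP9 (8.16) and SRPRA (7.94) stood above both (7.56 and 7.87), with SRP14 (7.71) between them. The mean of the RNA genes then exceeded the protein median by 1.24 in the second experiment, in place of 1.96. In the first experiment this excess was 0.58 with median lengths and 1.74 with the longest transcripts. With 200 bases taken off each longest transcript, which mostly affects the short RNA genes, it was 3.26 and 3.47. The mean of the RNA genes was thus above the median of the proteins under each of the 3 length measures, by an amount that the measure set. How far the library preparation captured the short RNA genes was not tested. The excess in reads therefore need not hold for the RNA in the cells.

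**Figure D2:**
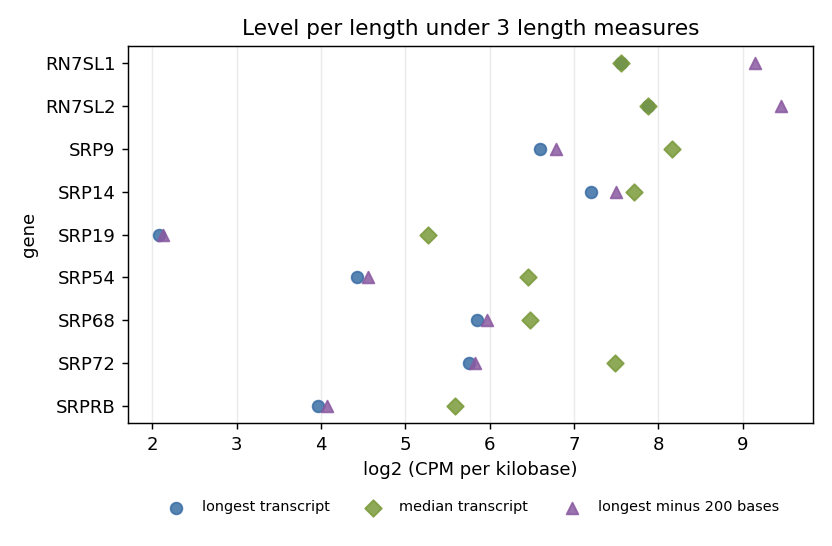
Level of the 9 members in the second experiment (horizontal axis, log2 CPM per kilobase) with the longest transcript (circles), the median transcript (diamonds) and the longest transcript less 200 bases (triangles). The RNA genes have a single annotated length, so circle and diamond coincide, while SRP19 moves from 2.08 to 5.26.

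Per length, the median percentile of the members among all genes with a length was 90.2 in the first experiment and 90.6 in the second. By reads alone these medians were 72.7 and 73.9, and the members ranged from percentile 58.4 (SRPRB) to 93.9 (SRP72) in the first experiment and from 50.1 (SRP19) to 93.2 (SRP72) in the second. SRP19, at the middle of the second experiment, fell to percentile 43.3 among genes with a symbol in all tables and to 38.1 among genes of at least 3 log2 CPM.

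Set side by side, 8 of the 9 members had a lower average in the second experiment, and RN7SL2 alone a higher one (0.16 on the log2 scale). Of all 10976 shared genes, 59.9% were lower in the second experiment. The members' median difference was -0.15, against -0.12 over all shared genes, whose quartiles were -0.50 and 0.20. Of the 9 members, 7 lay within those quartiles, and SRP19 and SRP54 lay below them. The experiments were normalized separately and share no library. The first average pools control and knockout cells, and the second only cells derived from the knockout, of which 2 of 3 conditions express USP28 from a vector. USP28 status, cell handling, vector transduction and library preparation therefore cannot be told apart in these differences. USP28 itself, which the vectors express, averaged 5.15 log2 CPM in the first experiment and 9.79 log2 CPM in the second. As averages over conditions, these values do not check the label of a single sample.

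**Figure D3:**
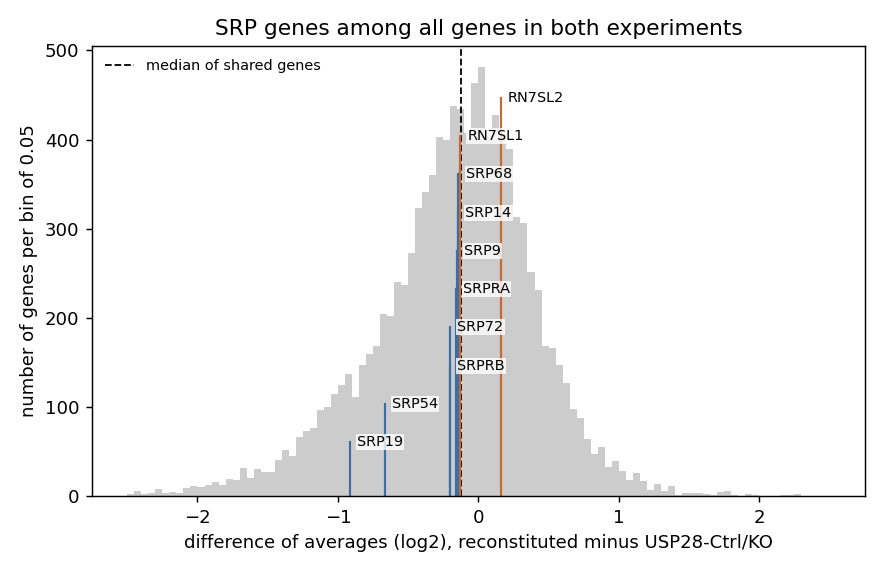
Difference of the averages, second minus first experiment (horizontal axis, log2), for the genes listed in both (grey, number of genes per bin on the vertical axis), with the 9 members and SRPRA as vertical lines (orange for RNA genes, blue for protein genes). Line heights only separate the names, 44 genes beyond 2.5 in either direction are outside the plot, and SRP19 and SRP54 are the lines furthest from the dashed median.

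The other genes of the pathway were taken as listed families. Of the receptor, translocon and signal peptidase genes, 19 of 20 symbols were listed in both experiments, the remaining one being an older symbol of SRPRA. Their median level was 5.16 log2 CPM per kilobase in the first experiment and 4.87 in the second. The median difference was -0.29, with 15 genes lower and 4 higher, and SRPRA and SRPRB are counted here too. Over all shared genes the median was -0.12, and 59.9% were lower. TRAM2, a translocon-associated protein, had the highest read level (8.75 log2 CPM in the second experiment). SEC62, a component of a post-translational route into the channel, had the lowest at 4.73 log2 CPM, down from 6.32 in the first. The family for glycosylation and folding in the endoplasmic reticulum had all 18 genes listed, a median difference of -0.013, and 10 genes lower against 8 higher. It ran from TMEM258 at 5.04 to the chaperone CALR at 10.3 log2 CPM in the second experiment. A family drawn up for routes that bypass the particle had 20 of 22 symbols listed (the others are alternative symbols of listed genes). It also holds NACA, BTF3 and SND1, which are not specific to such routes. The family had a median difference of 0.0079, and 9 genes lower against 11 higher. BTF3 (9.18 log2 CPM in the second experiment), a subunit of the nascent polypeptide-associated complex, was its highest gene, and EMC2 (3.02) its lowest.

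The family of RNA polymerase III subunits and factors had all 31 genes listed, with a median difference of -0.100 and 17 genes lower against 14 higher. Over all shared genes 59.9% were lower. The polymerase makes 7SL RNA, but not all genes of the family take part in that, SNAPC5 among them. GTF3C1, the largest subunit of TFIIIC, was highest at 7.90 log2 CPM in the second experiment, and SNAPC5 lowest at 3.01. Among 25 other small structured RNAs, 3 were listed in each experiment, and BCYRN1 was the only one listed in both. BCYRN1, a primate RNA derived from an Alu element whose left domain is related to 7SL, had an average of 7.08 log2 CPM in the first experiment and 6.52 in the second. It shared no run longer than 15 bases with RN7SL1. RN7SK (3.94 log2 CPM) and RMRP (3.36) were listed in the first experiment alone, and SNORD3A (1.37) and RPPH1 (0.83) in the second alone. By reads RN7SL1 and RN7SL2 were above each of these 4 RNAs and below BCYRN1. This order ranks reads and not abundance in the cells, since the capture of each RNA by the library preparation was not tested.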

How the data were processed

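Total RNA of HLF cells was sequenced in 5 conditions. The submitters' processing notes name bcl2fastq 2.20, STAR 2.5.4, edgeR 3.26.8 and hg19. The counting, the annotation, the filter on low genes and the number of libraries per condition are not given in the sources used here. The authors deposited, for each of 3 comparisons, an average log2 CPM per gene over all libraries of the fit, with a log2 fold change, a p-value, its adjustment and in 2 tables an F statistic. The comparison columns were not used. In 1 table the header stands a column to the left of its values, and the average was taken by position. No column of single samples was left unused (0).

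Genes were matched between tables by NCBI gene ID. Transcript lengths came from GENCODE release 29 and were found for 97.8% (USP28-KO table) and 96.7% (reconstitution tables) of genes. Reads were estimated as the CPM divided by the spacing of the averages of the lowest 10% of genes, 0.130 and 0.0328 CPM per read. Within 0.1 reads of a whole number lay 96.6% and 66.1% of these genes, so the second estimate is rougher. They include the prior count that the authors' fit added. Simulated data checked only whether a known spacing is recovered from whole reads, with or without a small scatter. Averaging over several libraries of unequal size was not simulated, so the read numbers remain approximate. The sequences of the RNA genes are not reported here. Named genes were the members, SRPRA, USP28, other RN7SL or SRP symbols and the highest and lowest gene of each family by reads in the second experiment. Values of the small RNAs and markers were named after being seen. The members and families were chosen with earlier results of these data known. Alternatives were other transcript lengths, gene sets for percentiles, read spacings and centrings. Figures were drawn with matplotlib 3.10.9. Calculations ran in Python 3.11.15 with scipy 1.17.1, pandas 2.3.3 and numpy 2.4.6.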

Additional observations from a re-analysis of the deposited data

How the results depend on the processing

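The RNA genes' mean exceeded the protein median by 1.74 (USP28-KO table) and 1.96 (reconstitution tables) log2 units per kilobase. With median transcript lengths these values were 0.58 and 1.24, and with 200 bases taken off the longest transcript, floored at 50 bases, 3.26 and 3.47, since the measure of length enters directly. The members' median percentile by reads, 72.7 and 73.9, was 72.1 and 70.3 among genes with a symbol in all tables. Among genes of at least 3 log2 CPM it was 70.8 and 67.6, and per length, an alternative chosen after seeing the data, 90.2 and 90.6. The members' median difference between the experiments, -0.15, was -0.032 after centring on the shared genes, -0.16 against genes of like level (within 1 log2 unit) and -1.48 percentile points by rank. No member's difference changed sign under these 3 alternatives. Taking the lowest 5% of genes for the read spacing left the totals at 7.68e+06 and 3.05e+07 reads. Depth limits the first experiment more than the second, and the number of libraries limits both, which no alternative could address. No replicate could be left out, since single libraries have no values here. No paired analysis was possible because the labels give 1 sample per condition.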
